A study of Caenorhabditis elegans with 9 samples.

Results

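The pharynx, the feeding organ of *Caenorhabditis elegans*, was followed in embryo mRNA through 6 genes of the 20389 counted: the transcription factors *pha-4*, *tbx-2*, *ceh-22* and *peb-1*, and the muscle myosins *myo-1* and *myo-2*. They were chosen by name, as regulators of the organ and myosins of its muscle. All 6 passed the filter on low counts, which kept 12643 genes.

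The embryonic pharynx is built from muscle, epithelial, marginal, gland and nerve cells that descend from different founder cells. *pha-4*, the FoxA factor, specifies the whole organ and acts in nearly all of its cells. Pharyngeal muscle then uses tissue-restricted factors, among them the T-box protein TBX-2 and the NK-2 homeodomain protein CEH-22, to turn on genes of contraction. This muscle has its own heavy chain myosins, MYO-1 and MYO-2, whereas body wall muscle uses MYO-3 and UNC-54. The myosins are made when muscle differentiates, later in embryogenesis than the start of the regulators.

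Messenger RNA had been sequenced from mixed-stage embryos of 3 strains, with 3 libraries each. Wild type was N2. The DPY-27::GFP strain carries a GFP-tagged *dpy-27*, the SMC4-type subunit of the X-chromosome condensin, as a single-copy insertion on chromosome II under the *hsp-16.41* heat-shock promoter and with the *dpy-27* 3′ UTR. The DPY-27(EQ)::GFP strain carries the same construct with a glutamate to glutamine change in the Walker B motif, known from related SMC proteins to impair ATP hydrolysis, and is called the EQ strain below. The genotype label of the EQ strain reads EQ-TR, and the TR part is not explained in the sources used here. Both transgenic strains keep their endogenous *dpy-27*. The parents of every strain, also of wild type, were held at 35°C for 30 min and left for 2 h before their embryos were collected. The heat-shock promoter is not restricted to the pharynx, so the libraries compare whole embryos with and without the heat-shocked transgene. The methods speak of biological replicates for mRNA-seq, in a passage on another strain, and the labels do not say that the replicates of these strains came from separate cultures, so p-values measure the spread between these libraries, which may be technical.

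Reads on genes numbered 17107945 to 23536013 in wild type, 7062182 to 9582838 for DPY-27::GFP and 7573682 to 21281027 in the EQ strain. For each read on a gene, wild-type libraries held 1.04 to 1.09 reads on no annotated feature, against 0.0346 to 0.0826 in the other 6 libraries, and the part of this in the results was not tested. The deposited names share a prefix between all wild-type libraries and EQ replicate 3, and the remaining 5 libraries carry another, whose meaning is not given. Reads on *dpy-27*, which include those of the transgene, were 474 ± 9.53 CPM (reads per 1000000, scaled as described below) in wild type, 690 ± 207 with DPY-27::GFP and 669 ± 205 in the EQ strain (SD, n = 3), and the library labelled DPY-27::GFP replicate 2, at 451, lay below all 3 wild-type libraries. Transcripts of the early embryo list (19 genes such as eggshell and germline genes) summed to between 820 and 2697 CPM over the 9 libraries, and those of the yolk protein list, made by adult intestine, to between 3.98 and 37.8.

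The levels of the 6 genes, per length, set them apart in wild type. In TPM (transcripts per 1000000), the authors' length-scaled level, *pha-4* stood at 177 ± 12, *tbx-2* at 50.6 ± 2.49, *ceh-22* at 50.4 ± 2.40 and *peb-1* at 40.9 ± 4.85, followed by *myo-2* at 25.2 ± 2.18 and *myo-1* at 18.96 ± 2.21 (SD, n = 3). Only *tbx-2* and *ceh-22*, neighbours in this order, overlapped between libraries. In the DPY-27::GFP libraries the order of the means changed behind *pha-4* (166 ± 15.2). *myo-2* averaged 92.3 ± 51.9 TPM and *myo-1* 74.3 ± 41.7, above *tbx-2* at 63.2 ± 5.33, *ceh-22* at 46.5 ± 3.65 and *peb-1* at 37.7 ± 7.50. Here the ranges of both myosins overlapped each other and those of *tbx-2*, *ceh-22* and *peb-1*, and *ceh-22* overlapped *peb-1*. In DPY-27::GFP replicate 3, *myo-2* (39.8 TPM) and *myo-1* (31.4 TPM) stood below every regulator, as in wild type. The place of *myo-1* rested on the library labelled DPY-27::GFP replicate 2: without it *myo-2* averaged 66.6 TPM, *tbx-2* 64.7 and *myo-1* 54.1 over the other 2 libraries, so *myo-1* stood below *tbx-2*. In the EQ strain the order was *pha-4* (163 ± 2.67), *myo-2* (78.1 ± 19.5), *tbx-2* (60.2 ± 3.80), *myo-1* (58.3 ± 14.1), *ceh-22* (48.3 ± 1.90) and *peb-1* (45.2 ± 7.98), and all neighbours after *pha-4* overlapped. The plot of CPM by library shows each gene between strains without the scaling by length, and does not show this order of the genes.

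**Figure D1:**
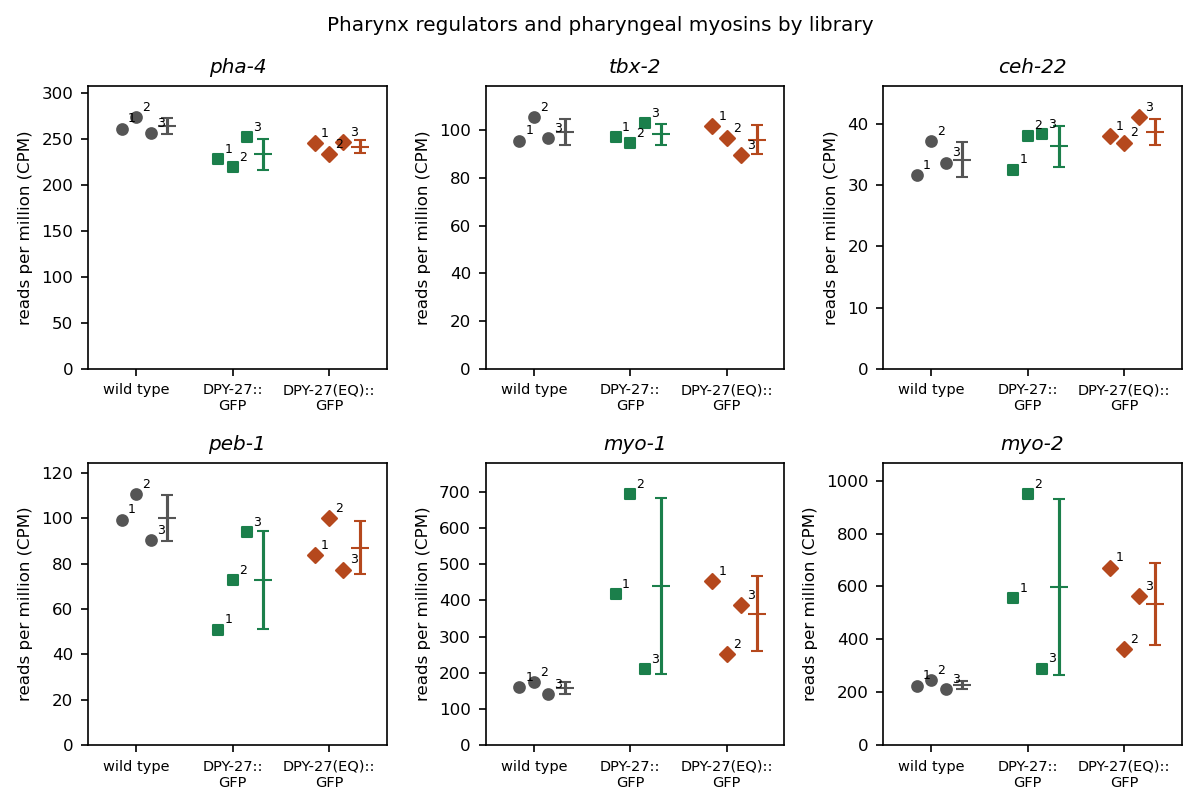
CPM (reads per 1000000, TMM-scaled) of the 4 regulators and the 2 pharyngeal myosins in each library, by strain. Points are libraries numbered by replicate, bars to the right of the points are the mean and SD (n = 3), and every axis starts at 0. All 6 transgenic libraries lie above the 3 of wild type for *myo-1* and *myo-2*, and slightly below them for *pha-4*. The strains overlap for *tbx-2*, *ceh-22* and *peb-1*, with a lower mean of *peb-1* in DPY-27::GFP (72.6 CPM) than in wild type (100 CPM).

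Counts were scaled to CPM with TMM factors, and the 9 libraries were fitted together in edgeR by its quasi-likelihood method, and p-values were adjusted after Benjamini and Hochberg over the 12643 genes. A gene was called at an adjusted p under 0.05. Every CPM value below compares one gene between libraries, not genes with each other. The counts behind the values ran from 266 reads (*ceh-22* in DPY-27::GFP replicate 3, a counting error of 6.13%) to 11740 reads (*myo-2* in EQ replicate 3), so counting error was smaller than the spread between libraries for the myosins.

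*pha-4* (F38A6.1, V:20752904-20760282 on WS220, forward strand) was the steadiest of the members in wild type. Its level was 262, 274 and 257 CPM in wild-type replicates 1 to 3. It was 229, 220 and 252 CPM in DPY-27::GFP and 246, 234 and 247 CPM in the EQ strain. All 6 transgenic libraries thus lay below all 3 of wild type, as was so for 1737 of the 12643 genes (13.7%), and the difference was small: a log2 fold change of −0.18 (95% interval −0.42 to 0.07, adjusted p = 0.320) in DPY-27::GFP and −0.13 (−0.37 to 0.12, adjusted p = 0.489) in the EQ strain, neither of which passed the test. In TPM the strains overlapped.

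*tbx-2* (F21H11.3, III:5130882-5136280, reverse strand), required for pharyngeal muscle of the anterior lineage, had the smallest fold changes from wild type. Wild type had 95.7, 105 and 96.7 CPM, DPY-27::GFP 97.2, 94.5 and 103 CPM, and the EQ strain 102, 96.7 and 89.6 CPM. The 3 strains overlapped, and the fitted difference from wild type was −0.02 (−0.26 to 0.23, adjusted p = 0.950) in DPY-27::GFP and −0.05 (−0.30 to 0.20, adjusted p = 0.808) in the EQ strain. These signs turned on other scales, to 0.03 with RLE factors in DPY-27::GFP and to 0.31 and 0.25 on TPM.

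*ceh-22* (F29F11.5, V:10672437-10675623, forward strand), an activator of *myo-2* in pharyngeal muscle, had the fewest reads. It stood at 31.7, 37.3 and 33.8 CPM in wild type. The DPY-27::GFP libraries stood at 32.6, 38.2 and 38.5 CPM, and those of the EQ strain at 38.2, 37.0 and 41.2 CPM. The EQ strain lay at the upper end, with the lowest of its libraries just inside the wild-type range, and neither difference passed the test: 0.09 (−0.21 to 0.39, adjusted p = 0.711) and 0.18 (−0.11 to 0.48, adjusted p = 0.408), with signs that turned on TPM (−0.12 and −0.06). Of its 2369 exonic bases in the WBcel235 annotation, 555 lie opposite an exon of the noncoding gene F29F11.19. The strand setting of the counting is not given in the sources used here, so reads of the 2 genes cannot be told apart there.

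*peb-1* (T14F9.4, X:2215622-2218981, forward strand) encodes a DNA-binding protein that recognises the *myo-2* enhancer. It was the regulator with the widest spread. Wild type had 99.3, 111 and 90.4 CPM, and DPY-27::GFP had 50.9, 72.8 and 94.0 CPM, from about the wild-type level in replicate 3 down to the lowest value of the 9 libraries in replicate 1. The EQ strain had 83.7, 100 and 77.3 CPM. Both transgenic strains overlapped wild type. The fitted difference was −0.47 (−0.90 to −0.04, adjusted p = 0.146) in DPY-27::GFP and −0.20 (−0.63 to 0.22, adjusted p = 0.527) in the EQ strain, where it was 0.13 on TPM. Without DPY-27::GFP replicate 3, the first of these was −0.65 and passed the test (adjusted p = 0.0251), and without replicate 1 it was −0.22 (adjusted p = 0.453). Leaving out the library labelled replicate 2 brought no regulator to a call in DPY-27::GFP, with log2 fold changes from −0.44 (*peb-1*) to 0.08 (*ceh-22*).

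*myo-1* (R06C7.10, I:7258918-7267077, reverse strand) and *myo-2* (T18D3.4, X:12467231-12475273, forward strand), the heavy chains of the thick filaments of pharyngeal muscle, were higher in every transgenic library. *myo-1* had 160, 173 and 141 CPM in wild-type replicates 1 to 3. It had 418, 694 and 209 CPM in DPY-27::GFP and 453, 250 and 386 CPM in the EQ strain. The lowest transgenic library was DPY-27::GFP replicate 3, next to wild-type replicate 2, and the library labelled DPY-27::GFP replicate 2, the one with no excess of *dpy-27* reads, had 3.32 times its level.

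*myo-2* followed the same pattern of libraries from another chromosome. Wild type had 225, 245 and 212 CPM. DPY-27::GFP had 555, 950 and 289 CPM and the EQ strain 671, 364 and 563 CPM. The wild-type and transgenic ranges did not overlap for either myosin, a separation that 1071 of the 12643 genes showed (8.47%).

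In DPY-27::GFP, *myo-1* rose 2.78-fold (log2 fold change 1.48, SE 0.34, 95% interval 0.73 to 2.23, adjusted p = 0.0208) and *myo-2* rose 2.64-fold (1.40, SE 0.34, 0.65 to 2.14, adjusted p = 0.0257). These were 2 of the 6 members called, both higher, where 1374 of all tested genes (10.9%) were called and 432 (3.42%) were called higher. The remaining 942 were called lower. In whole embryos, a different number of pharyngeal muscle cells and a different amount of RNA per cell cannot be told apart. On the scale of log2(TPM + 1), fitted with limma, 1499 were called higher and 517 lower. The median of all genes lay at 0.24 on that scale, and the myosins lay 1.50 (*myo-1*) and 1.41 (*myo-2*) above that median. With the replicate number as a block, 252 genes were called higher and both myosins were still called.

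In the EQ strain the fitted difference of the myosins fell just short of the threshold. It was 2.30-fold for *myo-1* (1.20, SE 0.34, 0.45 to 1.94, adjusted p = 0.0557) and 2.34-fold for *myo-2* (1.23, SE 0.34, 0.49 to 1.97, adjusted p = 0.0508). None of the 6 members was called, where 872 genes (6.90%) were, 230 of them higher and 642 lower, or 806 and 354 on the TPM scale. DESeq2 called both myosins on the same counts, with adjusted p = 0.00871 for *myo-1* and 0.00656 for *myo-2*, and the edgeR fit of the 2 strains alone called them as well, with adjusted p = 0.00115 and 0.00103. These fits also called more genes in all, 1724 of 12637 with DESeq2 and 3042 of 13501 with the 2 strains alone. Both comparisons use the same wild-type libraries and are not independent of each other.

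The transgenic strains were then compared directly, which asks whether the ATPase change mattered for these genes. None of the 6 members was called, nor was any other of the 12643 genes (0%), while 116 had an unadjusted p under 0.05. DESeq2 also called 0 and had 138. The intervals were wide for the myosins: the EQ strain differed from DPY-27::GFP by −0.28 (−1.01 to 0.45) for *myo-1* and by −0.17 (−0.90 to 0.56) for *myo-2*, on the log2 scale. They were narrower for the regulators, at 0.05 (−0.19 to 0.29) for *pha-4*, −0.03 (−0.29 to 0.22) for *tbx-2*, 0.09 (−0.21 to 0.39) for *ceh-22* and 0.26 (−0.17 to 0.69) for *peb-1*. Without the library labelled DPY-27::GFP replicate 2, the myosin differences changed sign, to 0.21 for *myo-1* and 0.34 for *myo-2*. In that fit 0 genes were called too, but 1808 of 13356 had an unadjusted p under 0.05. The lack of calls therefore does not show that the 2 transgenic strains were alike.

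**Figure D2:**
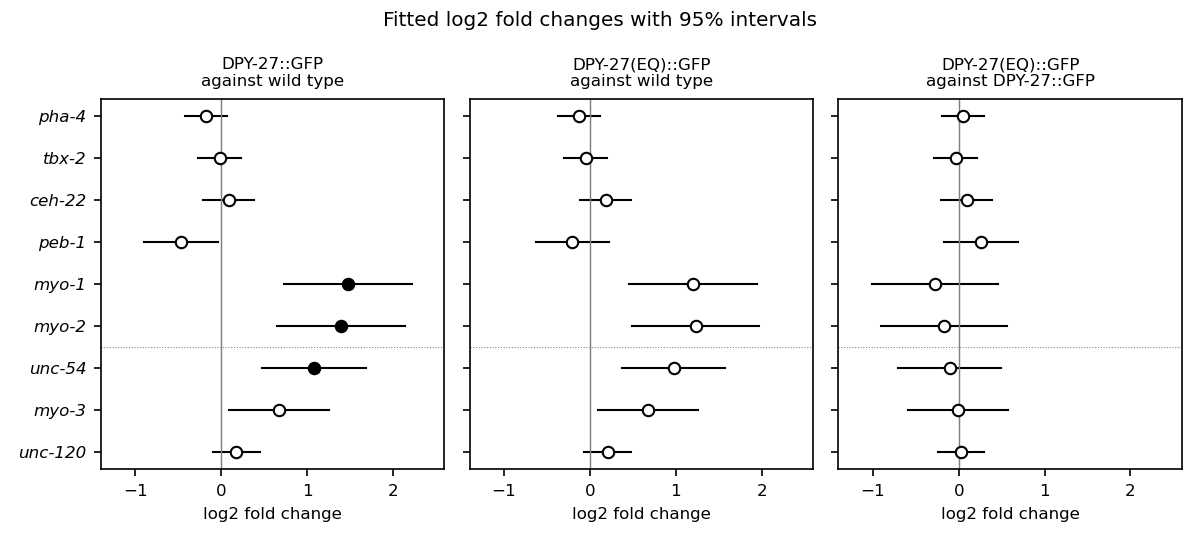
Fitted log2 fold changes of the 6 members and, under the dotted line, 3 body wall muscle genes, in the 3 comparisons. Points are estimates, lines are 95% intervals, and filled points passed an adjusted p of 0.05. In DPY-27::GFP against wild type *myo-1* (1.48), *myo-2* (1.40) and the body wall myosin *unc-54* (1.08) are filled, and the 4 regulators lie within 0.5 of 0 throughout.

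The calls of the myosins depended on single libraries. In DPY-27::GFP against wild type, both lost the call without wild-type replicate 1, 2 or 3 (adjusted p of 0.0837, 0.0566 and 0.119 for *myo-1* and of 0.0988, 0.0668 and 0.132 for *myo-2*) and without DPY-27::GFP replicate 1 (0.0697 and 0.076), although the log2 fold change stayed between 1.40 and 1.58. Leaving out the library labelled DPY-27::GFP replicate 2 lowered the log2 fold change to 1.01 for *myo-1* (adjusted p = 0.0389) and 0.92 for *myo-2* (0.0497). For wild type and DPY-27::GFP the prefix of the library names cannot be told apart from the strain except through the EQ strain. Within the wild-type prefix, EQ replicate 3 had 2.44 times the wild-type mean of *myo-1* and 2.48 times that of *myo-2*, and its *pha-4* level was 0.934 times the wild-type mean. EQ replicate 3 still differed from wild type in its reads on no annotated feature, with 0.0826 per read on a gene against 1.04 to 1.09. With the prefix as a covariate the log2 fold changes of the myosins in DPY-27::GFP were 1.61 and 1.52, with adjusted p = 0.428 and 0.45.

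The 2 myosins moved together from library to library. For each read of *myo-1* there were 1.40, 1.41 and 1.50 reads of *myo-2* in wild type, 1.33, 1.37 and 1.38 for DPY-27::GFP and 1.48, 1.45 and 1.46 in the EQ strain, so the ratio stayed between 1.33 and 1.50 while each gene varied over several-fold. By an exact two-sided permutation test, the log2 ratio differed by −0.08 between DPY-27::GFP and wild type (p = 0.1, adjusted 0.18 over 9 such tests) and by 0.03 between the EQ strain and wild type (p = 0.5, adjusted 0.643), where 3 libraries against 3 cannot go below 0.1. Genes on the X chromosome are the targets of the condensin that holds DPY-27, and *myo-2* is X-linked while *myo-1* is on chromosome I. The X-linked *peb-1* and *myo-2* had log2 fold changes of opposite sign, and the medians over all genes were 0.07 for the 1939 X-linked and −0.02 for the 10696 autosomal genes in DPY-27::GFP. In the EQ strain these medians were 0.09 and −0.05, and for the EQ strain against DPY-27::GFP 0.03 and −0.01. The part of X linkage in the values of the members was not tested.

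The myosins were also set against *pha-4*. In every transgenic library both myosins lay above all of wild type and *pha-4* lay below it. This ratio therefore had to separate the transgenic libraries from wild type. Its permutation p of 0.1 against wild type was fixed by those values and adds no evidence. There were 1.47, 1.53 and 1.37 reads of both myosins per read of *pha-4* in wild type. The DPY-27::GFP libraries held 4.25, 7.48 and 1.98, and those of the EQ strain 4.58, 2.63 and 3.85. Every transgenic library was above every wild-type one, and the log2 ratio was higher by 1.45 in DPY-27::GFP and by 1.30 in the EQ strain (exact permutation test, two-sided, p = 0.1 for both, adjusted 0.18). Without the library labelled DPY-27::GFP replicate 2 the first of these differences was 0.99, over 2 libraries and with no test. Between the transgenic strains the exact p was 0.9 for this ratio and 0.1 (adjusted 0.18) for *myo-2* per *myo-1*. These ratios were chosen after the values had been seen.

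The spread among replicates also divided the members. In DPY-27::GFP the coefficient of variation was 7.24% for *pha-4*, 4.50% for *tbx-2* and 9.13% for *ceh-22*, under the median of all genes of 23.0%, but 29.7% for *peb-1*, 55.3% for *myo-1* and 55.6% for *myo-2*. Only 7.71% of genes varied more than *myo-1* in that strain. Over the 2 libraries other than the one labelled DPY-27::GFP replicate 2, the coefficient was 47.0% for *myo-1*, 44.5% for *myo-2* and 42.1% for *peb-1*, beside a median of 14.2%. In wild type the myosins were not unusual, with 10.3% (*myo-1*) and 7.39% (*myo-2*) beside a median of 10.8%. The EQ strain lay between, with 28.5% for *myo-1* and 29.2% for *myo-2* beside a median of 13.1%.

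Stage markers, none of them a member, differed between the libraries. An embryo stage index was taken as the mean log2 CPM of 14 late genes (collagens and other proteins of the cuticle and extracellular matrix, and nerve genes) minus that of 18 early ones. It was 1.41, 1.91 and 0.75 in wild-type replicates 1 to 3, 2.16, 3.08 and 1.67 in DPY-27::GFP and 2.62, 2.09 and 2.29 in the EQ strain. The index of wild type was the lowest on average, at 1.36 ± 0.58 against 2.30 ± 0.72 and 2.33 ± 0.27 (SD, n = 3), and wild-type replicate 2 overlapped DPY-27::GFP. Most of the difference in the index lay in its early genes, whose mean log2 CPM differed from that of wild type by −0.80 for DPY-27::GFP and −0.81 for the EQ strain, against 0.15 and 0.17 for the late genes. The summed CPM of the late genes, in which the abundant cuticle genes weigh most, was lower in the transgenic libraries (11650 to 15560) than in wild type (16010 to 18720). Within each of the 3 strains, the libraries had the same order in *myo-1* and in *myo-2* as in the index, as had 520 of the 12643 genes (4.11%). None of the 4 regulators followed this order, or its reverse, in all 3 strains.

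**Figure D3:**
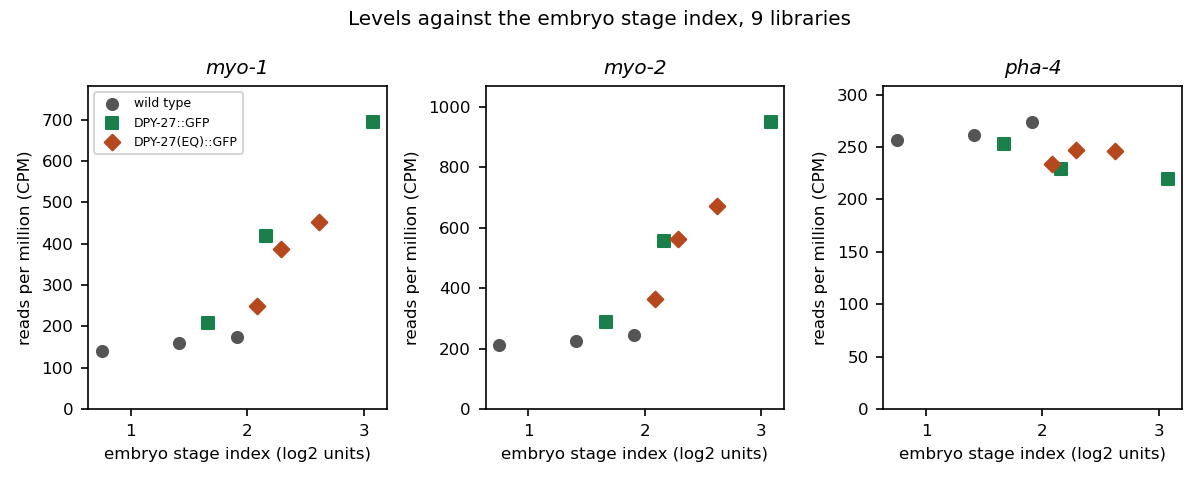
CPM of *myo-1*, *myo-2* and *pha-4* against the embryo stage index, the mean log2 CPM of late markers minus that of early markers, for the 9 libraries; colours and symbols mark strains and the vertical axes start at 0. The library labelled DPY-27::GFP replicate 2, at an index of 3.08, has the highest level of both myosins (694 and 950 CPM), and the *pha-4* points stay between 220 and 274 CPM.

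With the stage index as a covariate, the log2 fold change of *myo-1* in DPY-27::GFP was 0.52 in place of 1.48 (adjusted p = 0.259) and that of *myo-2* 0.46 in place of 1.40 (adjusted p = 0.347). In the EQ strain they were 0.33 (adjusted p = 0.606) and 0.38 (adjusted p = 0.564). Under that covariate 875 genes were still called in DPY-27::GFP and 453 in the EQ strain. Of the 14 late genes 3 rose and 1 fell in DPY-27::GFP, and their median was 0.10 there and 0.16 in the EQ strain: *unc-13* (0.96, adjusted p = 0.0113), *snt-1* (1.13, 0.0127) and *unc-104* (0.70, 0.0276), which act in synaptic release and axonal transport, rose, and the cuticle collagen *sqt-3* fell by 0.75 (adjusted p = 0.042, or 0.0671 with the replicate block). Of the 18 early genes tested, 5 were called lower in each transgenic strain and 0 higher, with a median of −0.88 in DPY-27::GFP beside −0.01 over all genes. Among these, *cpg-1* and *cbd-1*, which build the eggshell, fell by 1.55 and 1.01 on the log2 scale, *puf-3*, of the PUF family of RNA-binding proteins, by 1.19, and the oocyte maturation factor *oma-2* by 1.25, all in DPY-27::GFP. With the library labelled DPY-27::GFP replicate 2 left out, *unc-104*, *cbd-1* and *oma-2* were no longer called (adjusted p = 0.0503, 0.0943 and 0.0634). Whether embryo age had a part in the myosin difference beyond this covariate was not tested.

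Other genes of the pathway were read from lists chosen with results of these data known, and described by counts. Of the 10 genes that act upstream of the pharynx, such as the maternal factor *skn-1* and the Notch receptor *glp-1*, 7 were tested and none was called in any comparison. Their median was −0.17 in DPY-27::GFP and −0.38 in the EQ strain, beside −0.01 and −0.03 over all genes. The 3 that did not pass the filter were *med-1*, *med-2* and *tbx-35*, with at most 1.36 CPM in any library. Of 9 other pharyngeal regulators 8 were tested and none was called, with medians of 0.09 and 0.26; *ceh-34* and *eya-1*, a homeodomain factor and its Eyes absent partner, had log2 fold changes of −0.13 and −0.01 in DPY-27::GFP, which did not pass the test.

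Contraction genes of pharyngeal muscle were measured beside the myosins. Of the 9 genes, all tested, 2 rose in each transgenic strain: *tnt-4*, pharyngeal troponin T, and *tni-4*, pharyngeal troponin I. *tnt-4* averaged 119 ± 11 CPM in wild type, 266 ± 97.7 for DPY-27::GFP (log2 fold change 1.17, SE 0.25, adjusted p = 0.016) and 239 ± 64.3 in the EQ strain (1.01, SE 0.25, adjusted p = 0.0366). *tni-4* averaged 85.1 ± 11.2 CPM in wild type, 184 ± 90.7 for DPY-27::GFP (1.12, SE 0.29, adjusted p = 0.0305, or 1.06 and 0.0517 with the replicate block) and 184 ± 32.8 in the EQ strain (1.11, SE 0.29, adjusted p = 0.04). The other 7 were not called, among them *tnc-2*, pharyngeal troponin C, at 0.41 and 0.43, and the list's median was 0.42 in DPY-27::GFP and 0.39 in the EQ strain. Of the gland and cuticle genes 7 of 10 were tested and 1 was called: *pgp-14*, an ABC transporter of the pharynx, rose by 1.67 on the log2 scale in DPY-27::GFP (adjusted p = 0.0295), from 4.30 ± 1.57 to 13.6 ± 8.73 CPM. The median of the gland and cuticle list was 0.21 in DPY-27::GFP, with 5 of the 7 genes positive. It was 0.39 in the EQ strain, like that of the contraction list, with 6 of the 7 positive. Without the library labelled DPY-27::GFP replicate 2, *tnt-4* was still called in that strain (0.88, adjusted p = 0.0287), and *tni-4* (0.70, adjusted p = 0.0572) and *pgp-14* (1.04, adjusted p = 0.0802) were not. With the stage covariate none of these calls held in DPY-27::GFP, with 0.63 for *tnt-4* (adjusted p = 0.146), 0.40 for *tni-4* (0.357) and 0.52 for *pgp-14* (0.397), nor did those of the troponins in the EQ strain.

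Markers of other tissues of the embryo were read beside the members. All 7 tested body wall muscle genes had a positive log2 fold change in both transgenic strains, with medians of 0.60 and 0.67. Of these, *unc-27*, troponin I of body wall muscle, was called in DPY-27::GFP (1.16, adjusted p = 0.0108) and in the EQ strain (1.09, adjusted p = 0.0175), and *unc-54*, the major body wall myosin, was called in DPY-27::GFP (1.08, adjusted p = 0.0301). *unc-54* had 0.97 in the EQ strain (adjusted p = 0.0545). *myo-3* had 0.68 (adjusted p = 0.119) and 0.67 (adjusted p = 0.137), and turned to −0.05 and −0.004 with the stage covariate. In DPY-27::GFP without the library labelled replicate 2, *unc-27* was still called (0.86, adjusted p = 0.012) and *unc-54* was not (0.745, adjusted p = 0.0575). Both lost the call with the stage covariate, *unc-27* at 0.59 (adjusted p = 0.0739) and *unc-54* at 0.35 (adjusted p = 0.376). Omitting wild-type replicate 1 or 3 also cost *unc-27* its call (adjusted p = 0.0666 and 0.0737). *unc-54* was no longer called whichever wild-type library was omitted, nor when replicate 1 of DPY-27::GFP was.

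The body wall regulator *hlh-1*, of the MyoD family, was listed at 0 counts in all 9 libraries but at 54.9 to 96.0 TPM, and its deposited span lies within that of B0304.3. No count test of it was made. The pharyngeal myosins were 0.138 to 0.167 reads per read of *myo-3* and *unc-54* in wild type, 0.164 to 0.232 for DPY-27::GFP and 0.177 to 0.204 in the EQ strain, a ratio that overlapped between DPY-27::GFP and wild type (log2 difference 0.41, exact permutation p = 0.2, adjusted 0.3) and did not overlap in the EQ strain (0.33, exact permutation p = 0.1, adjusted 0.18). For this ratio too, 3 libraries against 3 cannot give a permutation p under 0.1, so the test could not pass. None of the 6 gut and 4 epidermis genes tested was called, with medians from −0.04 to 0.08. The gut genes went both ways, with 3 of the 6 positive in each transgenic strain. Their log2 fold changes ran from −0.738 (*end-1*) to 0.676 (*ifb-2*) in DPY-27::GFP and from −0.996 to 0.649 for the same genes in the EQ strain. The yolk protein genes of adult intestine, a check on maternal tissue, summed to 3.98 to 15.2 CPM in wild type, 16.3 to 37.8 for DPY-27::GFP and 7.64 to 28.4 in the EQ strain. Of 6 such genes 5 were tested and 0 called. All 5 had a positive log2 fold change in each transgenic strain, with medians of 1.715 in DPY-27::GFP and 0.75 in the EQ strain. The part of adult tissue in the myosin values was not tested.

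**Figure D4:**
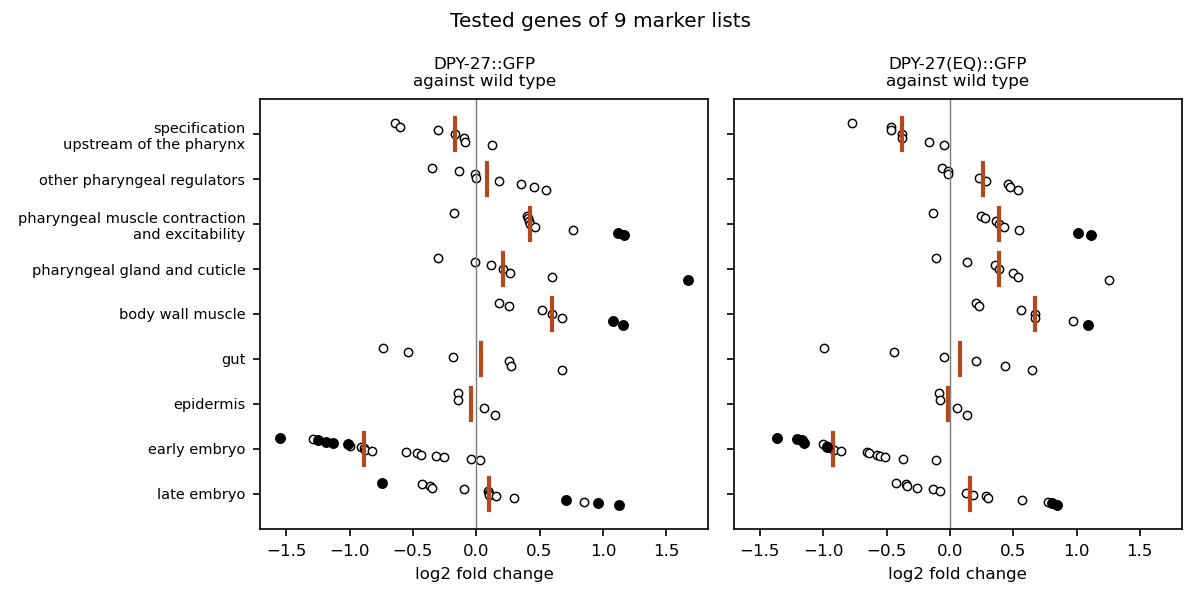
Log2 fold changes against wild type of the tested genes of 9 marker lists in each transgenic strain; each point is a gene, filled where its adjusted p was under 0.05, and the vertical bars are list medians. The muscle lists have medians above 0 (0.42 for pharyngeal contraction and 0.60 for body wall muscle in DPY-27::GFP), as has the gland and cuticle list (0.21). The early embryo list has a median below 0 (−0.88), and the lists of pharyngeal regulators hold no filled point. The yolk protein list is not drawn.

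The genes most like each member were sought by Pearson's r of log2 CPM over the 9 libraries, which share strain, depth and embryo stage, as a description. *myo-1* and *myo-2* were each other's nearest gene (r = 0.998), followed for both by *clik-2*, which encodes a calponin-like protein (0.998 with *myo-1* and 0.996 with *myo-2*). The third was T28D6.7 for *myo-1* (0.994) and Y43F8B.1 for *myo-2* (0.995). For the regulators the nearest genes were *hlh-4*, *nmt-1* and *cutl-13* for *pha-4* (0.976 to 0.968), *pxf-1*, *pnp-1* and *pgm-2* for *tbx-2* (0.953 to 0.894), *rhgf-2*, *mxt-1* and DH11.2 for *ceh-22* (0.974 to 0.923), and M153.5, *cpn-2* and F40A3.2 for *peb-1* (0.973 to 0.970). No member was among the nearest of a regulator. Between *pha-4* and the myosins r was −0.81 (*myo-1*) and −0.80 (*myo-2*), between *peb-1* and the myosins −0.67 and −0.65, between *tbx-2* and the myosins −0.34 and −0.35, and between *ceh-22* and the myosins 0.42 and 0.45.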

How the data were processed

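For each library the authors deposited raw read counts per gene and TPM values with gene positions. The labels and methods name CASAVA 1.8, HTSeq 0.6.1p1, Cufflinks 2.2.0, DESeq2 and the WS220 build. Which strand option the counting used is not given in the sources used here. Rows that name no gene held 55.2% to 58.2% of reads in wild type and 12.6% to 21.2% in the other strains, and were left out. Tables of the authors' comparisons (fold changes and p-values) were not used, and 0 columns of per-sample values were left unused.

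Counts were filtered with filterByExpr, scaled by TMM and fitted with strain as the only term by glmQLFit and glmQLFTest in edgeR 4.0.16 (limma 3.58.1, R 4.3.3), checked on simulated counts. Correlations and the stage index used log2 CPM with a prior count of 2. Alternatives were RLE factors, no filter, DESeq2 1.42.0, 2 strains only, each replicate left out, a replicate block, covariates for embryo stage and library-name prefix, and limma on log2(TPM + 1), the last chosen after seeing the data. Levels, spreads and ratios without DPY-27::GFP replicate 2 were also added after seeing the data. The 6 genes and all lists were chosen with earlier results of these data known. Of the lists, called genes are named, at most 4 each by smallest p, with *myo-3*, *unc-54* and *hlh-1* as contrast. A few genes that were not called, *skn-1*, *glp-1*, *ceh-34*, *eya-1*, *tnc-2*, *end-1* and *ifb-2*, are named as examples chosen after their values were seen.

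Same-numbered wild-type and DPY-27::GFP libraries deviated together (correlations 0.103, 0.423 and 0.449), the only ground for treating them as paired, and with the replicate block *myo-1* had a log2 fold change of 1.40 and *myo-2* of 1.32. The EQ strain gave 0.0235, −0.263 and 0.0131 with wild type and −0.247, −0.479 and −0.131 with DPY-27::GFP. Between differently numbered libraries of the EQ strain and DPY-27::GFP the correlations ran from −0.376 to 0.517. The highest of these was above every same-numbered value. All pairs of libraries within a strain differed by more than sampling noise (chi-square per gene of 8.59 to 44.7). Counting errors cover sampling of reads only. Exonic overlap was taken from the WBcel235 annotation. Sequences were not used here. Figures were drawn with matplotlib 3.10.9.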

Additional observations from a re-analysis of the deposited data

How the results depend on the processing

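In DPY-27::GFP against wild type, the 2 members called became 0 with the stage index or with the name prefix as covariate, and 0 to 3 when 1 library was left out (3, with *peb-1*, without DPY-27::GFP replicate 3). For the EQ strain against wild type, the 0 called became 2 with no filter, with DESeq2, with 2 strains only and with limma on TPM, and 0 to 2 when 1 library was left out (2 without DPY-27::GFP replicate 2 or 3, 0 otherwise). Where 2 were called, all genes called rose from 872 as well. They were 1100 with no filter, 1724 with DESeq2, 3042 with 2 strains only and 1160 with limma on TPM. Without DPY-27::GFP replicate 2 or 3 they were 2317 and 1897. The causes were not tested, beyond fewer libraries in the fits that leave one out. Between the transgenic strains 0 members were called under every alternative run. The replicate block changed no call of a member (2 in DPY-27::GFP, 0 in the EQ strain). Both myosins kept a positive log2 fold change from wild type under all 17 alternatives, from 0.517 to 1.86 for *myo-1* in DPY-27::GFP.

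Some uncalled values turned in sign. *tbx-2* in DPY-27::GFP was 0.0252 with RLE factors, 0.0241 with no filter, 0.0251 with DESeq2, 0.314 on TPM and −0.0177 to 0.043 when 1 library was left out. On TPM, *ceh-22* was −0.115 in DPY-27::GFP and −0.0595 in the EQ strain, *tbx-2* and *peb-1* in the EQ strain were 0.247 and 0.131, and *pha-4* between the transgenic strains was −0.0258. Relative to the shifted median of that scale (0.24 and 0.20), *tbx-2* was 0.08 and 0.04 and *peb-1* in the EQ strain −0.07. With the stage covariate *myo-3* was −0.0464 in DPY-27::GFP and −0.00403 in the EQ strain. Between the transgenic strains *tbx-2* was 0.0133 with the prefix covariate. There, leaving out 1 library gave −0.0733 to 0.0143 for *tbx-2*, −0.0147 to 0.13 for *ceh-22*, −0.637 to 0.213 for *myo-1* and −0.522 to 0.335 for *myo-2*.

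All genes called ranged from 39 (prefix) to 3169 (without DPY-27::GFP replicate 3) around 1374, and from 121 (prefix) to 3042 (2 strains only) around 872. Of the 13 named list genes called in DPY-27::GFP, 13 lost the call without wild-type replicate 3 or with the prefix, 12 without DPY-27::GFP replicate 1 and 11 with the stage covariate, which 8 of the 13 genes help to define. Of the 9 in the EQ strain, 9 lost it without wild-type replicate 1 or 3, without EQ replicate 1 or 3, and with either covariate.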
